A study of Mus musculus with 4 samples.

Results

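Cells commit to division in G1, when mitogens raise the D-type cyclins. These partner the kinases Cdk4 and Cdk6 and phosphorylate the retinoblastoma protein Rb1, which otherwise holds the E2F transcription factors in check. The Cip/Kip inhibitors Cdkn1a (p21), Cdkn1b (p27) and Cdkn1c (p57) restrain cyclin-dependent kinases, and the transcription factor Myc promotes entry into the cycle. In the mammary gland cyclin D1 is best known for its requirement in alveolar growth during pregnancy. The genes described here are these 10 of the 27998 genes listed in the single-cell count tables: Ccnd1, Ccnd2, Ccnd3, Cdk4, Cdk6, Cdkn1a, Cdkn1b, Cdkn1c, Myc and Rb1, chosen by name and followed through 3 lineages, the basal cells, the luminal progenitors (LP) and the mature luminal (ML) cells, in cycling and in other cells.

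The cells were sorted Lin–CD24+ mammary epithelial cells of FVB/NJ female mice, profiled by droplet 3′ single-cell RNA-sequencing. Puberty was sampled at 5 weeks of age, and adult glands at 10 weeks in estrus or in diestrus, staged by vaginal cytology; glands of 2 mice were pooled for each adult library, and animals cannot be told apart in any library. The 2 puberty tables shared 5387 barcodes, 99.2% of those in the larger table, and were counted as 1 library, which leaves 3 libraries (puberty, estrus and diestrus) with 5428, 2729 and 2439 barcodes and 25365324, 10962454 and 11868593 counts. No other pair of tables shared more than 24 barcodes. Cells with a count of 3 or more of 10 proliferation genes (Mki67, Top2a and others, none of them a member) were taken as cycling. The rest were called other cells. Their phase was not determined, so they may include dividing cells in G1. Per library this gave 53 to 177 cycling basal cells, 20 to 120 cycling LP cells and 59 to 159 cycling ML cells, beside 873 to 1254, 450 to 1649 and 621 to 2027 other cells of those lineages.

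The other cells of each lineage held the markers of its name. The basal, LP and ML marker lists were used to class the cells, so this was built into the classing and is not a check. Summed basal markers reached 28330 to 41450 CPM in the other cells of the basal class and at most 166 in LP or ML cells. CPM are counts scaled to a common total in each sum over the cells of a lineage, library and state. Summed LP markers reached 20770 to 42650 CPM in other LP cells and at most 582 in other basal or ML cells. In cycling cells the same markers were lower: basal markers summed to 9903, 14050 and 17930 CPM in cycling basal cells (puberty, estrus, diestrus) against 28680, 41450 and 28330 in other basal cells, LP markers to 9231 to 15790 CPM in cycling LP cells, and ML markers to 4424 to 8103 CPM in cycling ML cells against 7854 to 13570 in other ML cells. In cycling cells of the other lineages the LP markers reached at most 709.6 CPM, in basal cells of puberty. Immune markers summed to at most 5.4 CPM in any lineage. The fibroblast list summed to 225 to 739 CPM in other basal and ML cells, nearly all of it Dcn, with Pdgfra at 0 in other ML cells. The 4 hemoglobin genes that mark red blood cells summed to 68.6, 604 and 557 CPM in other ML cells (puberty, estrus, diestrus) and to at most 12.4 CPM in other basal or LP cells. Their part in the results below was not tested. In bulk sums such as these, fewer cells that express a gene and less RNA per cell cannot be told apart. Member levels are given as CPM on trimmed-mean-scaled (TMM) totals of these sums, as the mean ± SD over the 3 libraries.

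The gene starts of the 2 kinases are shown because Cdk4 and Cdk6, which bind the same cyclins, had unlike lineage patterns. Each line gives the 250 bases before the RefSeq start (GRCm38.p6, plus strand, 5′ to 3′), with the E-box CACGTG that Myc and its partner Max can bind, the E2F motif TTTNNCGC and the TATA box TATAAA in capitals, searched on both strands. The Cdk4 stretch is chr10:127063285-127063534 and the Cdk6 stretch is chr5:3343643-3343892.
Cdk4: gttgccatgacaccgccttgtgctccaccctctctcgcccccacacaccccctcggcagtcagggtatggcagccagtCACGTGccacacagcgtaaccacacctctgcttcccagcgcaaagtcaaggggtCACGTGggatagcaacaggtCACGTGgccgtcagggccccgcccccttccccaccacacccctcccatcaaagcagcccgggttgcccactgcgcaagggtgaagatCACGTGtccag
Cdk6: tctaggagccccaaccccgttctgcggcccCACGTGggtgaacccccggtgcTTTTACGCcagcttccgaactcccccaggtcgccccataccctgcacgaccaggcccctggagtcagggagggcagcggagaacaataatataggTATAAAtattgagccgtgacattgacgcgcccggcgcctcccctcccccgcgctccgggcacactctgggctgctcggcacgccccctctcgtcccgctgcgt
The Cdk4 stretch held 4 E-boxes, and the Cdk6 stretch held 1 E-box, 1 E2F motif and 1 TATA box. Of 32851 RefSeq promoter windows of this length, 6.02% held an E-box, 0.0213% held at least 4, 4.28% held the E2F motif and 12.4% held the TATA box. None of these motifs, nor a CRE (TGACGTCA) or an AP-1 motif (TGANTCA), was in the windows of Ccnd3, Cdkn1a or Cdkn1b, which says only that these letters are not there. Ccnd1, Ccnd2, Cdkn1c, Myc and Rb1 had no entry.

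The D cyclins divided the lineages. Ccnd2 was a basal gene, Ccnd1 was highest in LP cells, and Ccnd3 differed little, although LP cells were slightly the lowest in each library. Across lineages, 6 of the 10 members passed the test between basal and luminal cells (4 higher in basal cells, 2 lower), where 54.2% of all genes tested passed, so the members passed about as often as genes in general. Between LP and ML cells 6 of 10 passed (5 higher in LP cells, 1 lower), where 42.5% of all genes passed. The median difference on the log2 scale over the 10 members was 0.28 for basal against luminal cells, beside 0.019 over all genes, and 1.15 for LP against ML cells, beside 0.028 over all genes.

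**Figure D1:**
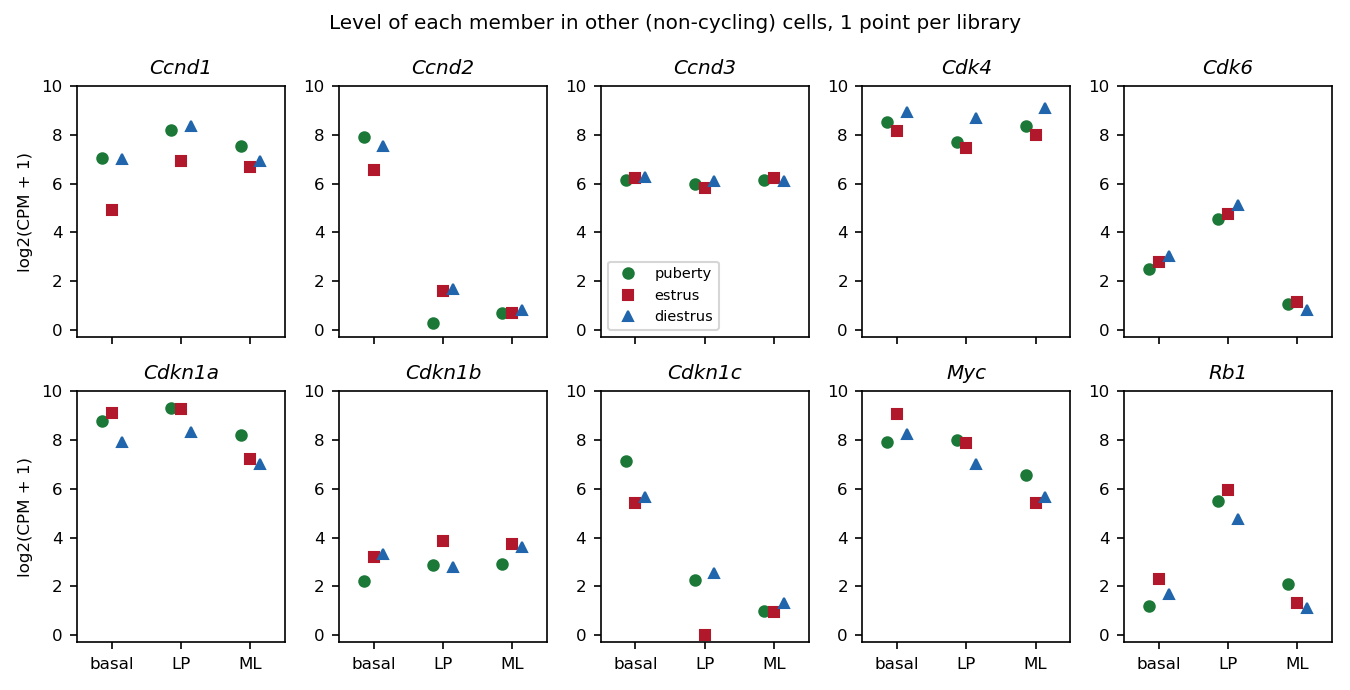
Level of each of the 10 members in other basal, LP and ML cells (not called cycling), as log2(CPM + 1). Each library has 1 point (circle for puberty, square for estrus, triangle for diestrus). Ccnd2 and Cdkn1c stand high in basal cells, Cdk6 and Rb1 stand high in LP cells, and Ccnd3 varies little, between 56.1 and 76.9 CPM in all 9.

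Ccnd2 (chr6:127125162-127152193, minus strand, GRCm38) had 236 CPM in puberty, 92.3 in estrus and 185 in diestrus in other basal cells, from 376 to 722 counts each. In LP cells it had 0.22, 2.05 and 2.16 CPM and in ML cells 0.61, 0.61 and 0.76 CPM, which rest on 8 and 9 counts in all. Basal and luminal ranges did not overlap, and the fitted log2 difference was 7.81 ± 0.29 (SE; adjusted p = 6.4e-10, edgeR; higher in 3 of 3 libraries), with a luminal side set by so few counts that its size is approximate. With every cell thinned to 2000 counts, 25%, 13.3% and 24.9% of other basal cells (puberty, estrus, diestrus) had a Ccnd2 count. In luminal cells that share was at most 0.271%, and 0 of 1476 other LP cells of puberty had one, which at 3 counts of that total allows up to 0.203% of cells with a count (counting error only; not a limit on cells that express the gene). The basal share was far above the luminal share in each library. Free RNA was not measured, and its part in the few luminal counts was not tested.

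Ccnd1 (chr7:144929931-144939925, minus strand) was present in all 3 lineages. Other LP cells had 291, 119 and 329 CPM in puberty, estrus and diestrus, ML cells had 187, 103 and 122, and basal cells had 132, 29.5 and 127. Each lineage was lowest in estrus and the ranges overlapped between lineages, but within each library LP cells stood above ML and basal cells. The log2 difference was -1.04 ± 0.22 for basal against luminal cells (adjusted p = 0.0018, lower in 3 of 3 libraries) and 0.79 ± 0.25 for LP against ML cells (adjusted p = 0.021, higher in 3 of 3). The first did not pass without the library as a block (-0.90, adjusted p = 0.14), and the second did not pass without the diestrus library (0.42, adjusted p = 0.25), nor without the block (adjusted p = 0.22).

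Ccnd3 (chr17:47505051-47599691, plus strand) averaged 73.1 ± 3.9 CPM in basal cells, 62.0 ± 5.6 in LP cells and 70.6 ± 2.9 in ML cells (n = 3 libraries). LP cells were the lowest in each library. Their range (56.1 to 67.1 CPM) did not overlap that of basal cells (69.1 to 76.9) or ML cells (68.3 to 73.8). Still, the differences were small. It passed neither lineage test, with log2 differences of 0.19 ± 0.11 (adjusted p = 0.17) and -0.13 ± 0.13 (adjusted p = 0.47). Of the 31-base words in the last 500 bases of its transcripts, 7.66% also occur in transcripts of other genes, as do 3.85% of those of Cdk4 and 5.69% of those of Cdk6, so the counts of these 3 genes are uncertain by the reads that could not be placed uniquely.

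The make-up of the D-cyclin counts shows the same division within each library. The 3′ protocol gives 1 count per captured molecule whatever its length, so counts were compared between genes without dividing by length, although capture may differ between transcripts. In other basal cells Ccnd2 made 54.0%, 47.3% and 47.6% of D-cyclin counts (puberty, estrus, diestrus) and Ccnd1 made 30.2%, 15.1% and 32.6%. In other LP cells Ccnd1 made 82.2%, 67.2% and 82.6%, with Ccnd3 as nearly all of the rest. In other ML cells Ccnd1 made 72.7%, 57.9% and 63.8%. Basal cells in estrus had the largest Ccnd3 share of the basal sums, 37.6% (95% exact binomial interval 34.2 to 41.1), at a Ccnd3 level that hardly differed from the other libraries.

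**Figure D2:**
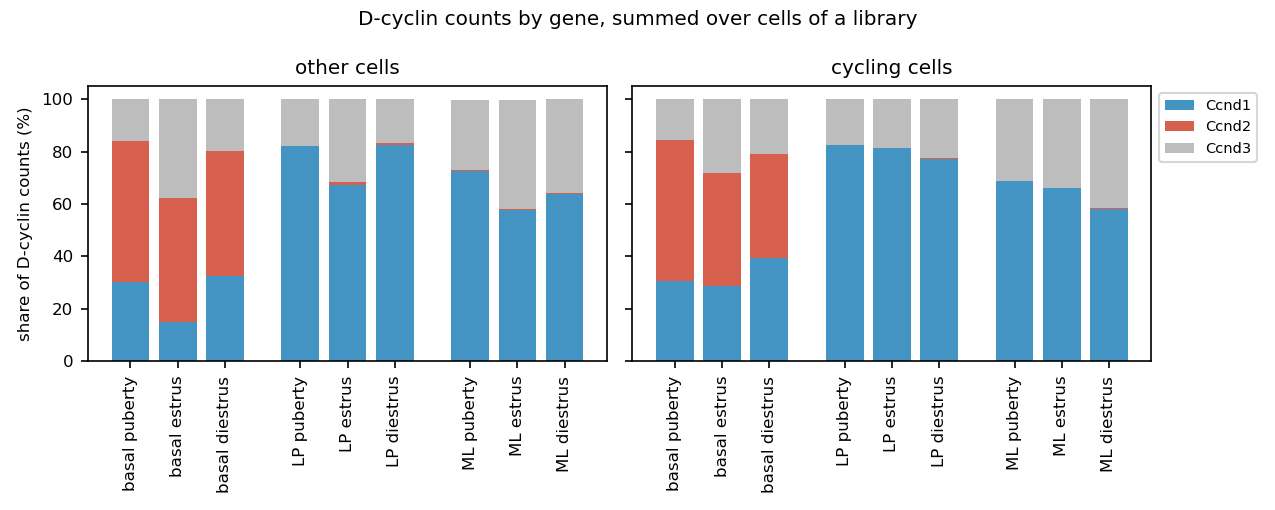
Share of the summed D-cyclin counts (%) from Ccnd1, Ccnd2 and Ccnd3 in each lineage and library, for other cells (left) and cycling cells (right). Ccnd2 makes 39.7% to 54.0% of the counts in basal cells and at most 1.16% in luminal cells.

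The kinase partners did not follow one another. Cdk4 (chr10:127063534-127067920, plus strand) was high in every lineage, with 367, 287 and 486 CPM in other basal cells (puberty, estrus, diestrus), 209, 174 and 412 in LP cells and 326, 254 and 549 in ML cells. Its lineage ranges overlapped, and LP cells were the lowest within each library. The differences were small, at 0.38 ± 0.12 for basal against luminal cells (log2, adjusted p = 0.016) and -0.47 ± 0.14 for LP against ML cells (adjusted p = 0.014). The first did not pass without the puberty library (0.23, adjusted p = 0.20) or without estrus (0.33, adjusted p = 0.098), the second did not pass without puberty (-0.44, adjusted p = 0.051), and neither passed without the block.

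Cdk6 (chr5:3341485-3531008, plus strand) was concentrated in LP cells, at 22.2, 26.0 and 33.6 CPM in puberty, estrus and diestrus. Other ML cells had 1.10, 1.21 and 0.76 CPM and other basal cells 4.59, 5.89 and 7.11. The 3 lineages did not overlap. The difference between LP and ML cells was 4.61 ± 0.30 on the log2 scale (adjusted p = 1.4e-07, higher in 3 of 3 libraries), from 201 counts in LP and 15 in ML cells, while basal cells did not pass against the mean of the luminal lineages (0.11 ± 0.24, adjusted p = 0.75).

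Rb1 (chr14:73183673-73325822, minus strand), the substrate of those kinases, had the same lineage order among luminal cells as Cdk6. Other LP cells had 44.0, 60.9 and 26.5 CPM, other ML cells had 3.30, 1.51 and 1.13, and other basal cells had 1.31, 3.93 and 2.26. LP cells lay above both other lineages with no overlap, and basal and ML cells overlapped. The log2 difference of LP against ML cells was 4.28 ± 0.33 (adjusted p = 7.1e-07) and that of basal against luminal cells -1.90 ± 0.37 (adjusted p = 0.00087), each with the same sign in 3 of 3 libraries. The counts were low, 27 in all in other basal cells and 35 in ML cells, and 5.22%, 9.49% and 3.82% of thinned LP cells had a count. Gm17233 and Mir687 lie on the same strand within the span of Rb1, and no 31-base word of its transcript ends occurs in another gene.

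Among the inhibitors, Cdkn1c was a basal gene and Cdkn1a a gene of every lineage. Cdkn1c (chr7:143458339-143461050, minus strand) had 139, 41.5 and 50.1 CPM in other basal cells of puberty, estrus and diestrus, and at most 4.87 CPM in LP and 1.51 in ML cells. Its ranges did not overlap, and the log2 difference was 5.59 ± 0.32 (adjusted p = 3.0e-08, higher in 3 of 3 libraries), against luminal sums of 26 and 15 counts. Cdkn1c and Ccnd2, an inhibitor and an activator, thus had the same basal restriction in these libraries.

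Cdkn1a (chr17:29090976-29100727, plus strand) had 635, 619 and 322 CPM in other LP cells, 439, 553 and 240 in basal cells and 294, 150 and 130 in ML cells. LP cells stood above ML cells without overlap (1.5 ± 0.20 on the log2 scale, adjusted p = 8.2e-05), and basal against luminal cells narrowly missed the threshold (0.41 ± 0.17, adjusted p = 0.057). That last value passed under 5 alternatives, with adjusted p-values from 0.0027 (no filter) to 0.05. Cdkn1b (chr6:134920401-134925513, plus strand) was sparse, between 3.60 and 13.7 CPM in the 9 sums of other cells. It passed neither lineage test (adjusted p = 0.23 and 0.72). At 11 to 54 counts per sum, modest differences in Cdkn1b were not detectable at this depth.

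Myc (chr15:61985391-61990374, plus strand) fell in the order basal, LP, ML on average. Other basal cells had 239, 532 and 301 CPM, LP cells 253, 237 and 128, and ML cells 93.6, 42.3 and 49.1. ML cells lay below the other lineages with no overlap, while basal and LP cells overlapped and LP was the higher in puberty. The log2 difference was 1.72 ± 0.25 for basal against luminal cells (adjusted p = 1.0e-04) and 1.75 ± 0.31 for LP against ML cells (adjusted p = 0.00069), each in 3 of 3 libraries.

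Genes whose levels followed the D cyclins most closely were sought among 5236 genes with a mean of at least 20 CPM, over the 9 sums of other cells (3 lineages in 3 libraries, which share cells of a library and its depth). Ccnd2 was followed by Col4a1 (Pearson r = 0.998), which encodes a basement membrane collagen chain, and by Moxd1, Rcn3, Il17b and Spon2 (r from 0.989 to 0.993). All of these belong to the basal signature used to class the cells, so their higher level in basal cells was built into the classing. Ccnd1 was followed by Mrpl46 (r = 0.949), Yif1a, Hsd17b12, Sap30bp and Dyrk3. Ccnd3 was followed by Fastk (r = 0.955), Lrrfip2, Ptp4a3, Psmc3ip and Atf6b. Ccnd3 itself spanned only 56.1 to 76.9 CPM over these sums. How high the top r of 5236 genes would be by chance over 9 sums was not tested, so these lists are a description.

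The other genes of the G1 to S machinery were read from a list of 28. Of 22 tested between lineages, 11 passed for basal against luminal cells, 9 of them higher in basal cells, with a median of 0.40 on the log2 scale; 54.2% of all genes passed, so the list passed no more often than genes in general. Ccne1, the cyclin that activates Cdk2 at the start of S phase, was higher in basal cells (2.34 ± 0.46, adjusted p = 0.00098), as were the dimerization partner Tfdp2 (1.22 ± 0.17) and the Cdk4 and Cdk6 inhibitor Cdkn2d (1.51 ± 0.25). Cdkn2c, an inhibitor of the same family, was lower in basal cells (-1.06 ± 0.23, adjusted p = 0.0019), as was Mnat1, a subunit of the Cdk-activating kinase (-0.52 ± 0.12). Between LP and ML cells 9 of 22 passed, 6 of them higher in LP cells, beside 42.5% of all genes.

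The INK4 inhibitors, which act on Cdk4 and Cdk6, were split between the luminal lineages. Other ML cells had 12.6, 7.86 and 6.42 CPM of Cdkn2a (103, 26 and 17 counts in puberty, estrus and diestrus), while LP cells had 0, 0 and 1 count. ML cells were thus higher in Cdkn2a (-5.93 ± 0.78 for LP against ML, log2, adjusted p = 6.2e-05, a size set by a single LP count), in Cdkn2b (-3.02 ± 0.58, adjusted p = 0.0012) and in Cdkn2d (-1.77 ± 0.33, adjusted p = 0.00099). Cdkn2c went the other way and was higher in LP cells (1.38 ± 0.24, adjusted p = 0.00053), as were Cks1b, a subunit that helps mark Cdkn1b for degradation (1.16 ± 0.17), and Fbxw7, which targets cyclin E and Myc for degradation (1.76 ± 0.24). Cdkn2a and Cdkn2b are neighbors, and Cdkn2a counts do not separate its 2 products.

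In the Myc network, Mycn was higher in basal cells and Mycl in ML cells. Of 9 genes tested, 3 passed for basal against luminal cells and 4 for LP against ML cells, beside 54.2% and 42.5% of all genes, with medians of 0.11 and 0.35. Mycn had 15.1, 9.33 and 7.11 CPM in other basal cells and at most 0.88 in luminal cells (5.62 ± 0.44, log2, adjusted p = 4.4e-07). Mycl had 18.8, 15.4 and 12.5 CPM in ML cells and at most 1.32 in LP cells (-4.17 ± 0.53 for LP against ML cells, adjusted p = 4.4e-05). Mxd4, which competes with Myc for Max, was higher in LP than in ML cells (1.38 ± 0.14, adjusted p = 6.4e-06) and, by less, in basal cells (0.46 ± 0.11), whereas Mlx was lower in basal cells (-0.62 ± 0.17).

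Genes that p53 activates beside Cdkn1a did not follow its lineage order. Of 13 tested, 7 passed for LP against ML cells, beside 42.5% of all genes, and 5 of them were lower in LP cells, where Cdkn1a was higher. Gadd45a (-1.28 ± 0.16), Plk2 (-1.04 ± 0.12) and Zmat3 (-2.36 ± 0.38) were lower in LP cells, and Btg2 (1.14 ± 0.16) and Sesn2 (1.32 ± 0.26) were higher. For basal against luminal cells 5 passed, beside 54.2% of all genes, with Phlda3 (3.41 ± 0.15) and Mdm2 (1.27 ± 0.14) higher and Trp53inp1 (-3.15 ± 0.28) lower. Their medians on the log2 scale were -0.38 and 0.21.

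Stages were compared with 1 library each, so ratios between them have no replicate check and carry no test; their intervals are exact and cover counting error only. A ratio was read only where a sum had at least 20 counts. Between diestrus and estrus, 7 of the 23 member and lineage pairs so measured differed by at least 2-fold, where 8.65% of all genes did in basal cells, 11.4% in LP cells and 7.26% in ML cells. In puberty against both adult libraries 2 of 24 did, where 5.07%, 3.62% and 2.93% of all genes did. Dropping the trimmed-mean scaling shifted the median of all genes by between -0.42 and 0.026 between libraries on the log2 scale, more than 0.1 in 7 of the 9 lineage and library pairs.

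Among the members Ccnd1 in basal cells differed most between the adult libraries. Other basal cells had 127 CPM in diestrus against 29.5 in estrus, from 392 and 120 counts, a log2 ratio of 2.07 (95% interval 1.81 to 2.41). LP cells had 329 against 119 CPM, a log2 ratio of 1.46 (1.22 to 1.72). In ML cells the ratio was 0.24 (0.021 to 0.47), and puberty was the highest there, at 187 CPM. The thinned share of other basal cells with a Ccnd1 count was 14.2% in the puberty library (95% exact interval 11.8 to 16.8), 3.23% in the estrus library (2.18 to 4.61) and 16.0% in the diestrus library (13.3 to 18.9), so estrus was the lowest at equal depth too. In cycling LP cells Ccnd1 had 446, 383 and 384 CPM in puberty, estrus and diestrus, so estrus did not stand below diestrus there (log2 ratio 0.0035, interval -0.33 to 0.35), whereas in cycling basal cells it did (1.14, interval 0.75 to 1.56).

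Ccnd2 in basal cells followed in the same direction, with 185 CPM in diestrus and 92.3 in estrus (log2 ratio 0.99, interval 0.81 to 1.19), just inside the 2-fold limit. Ccnd3 had no such pattern, with ratios of 0.066 (-0.19 to 0.32) for basal, 0.25 (-0.16 to 0.68) for LP and -0.11 (-0.40 to 0.17) for ML cells. Cdk4 was higher in diestrus in each lineage, with log2 ratios of 0.76 (0.65 to 0.87) for basal, 1.24 (1.04 to 1.46) for LP and 1.11 (0.99 to 1.23) for ML cells. Beside these, cycling cells made up 16.9% of basal and 14.3% of LP cells in diestrus and 4.06% and 4.26% in estrus. Of ML cells they made up 8.81% and 7.50% in the same libraries. A cycling call depends on depth, and these shares were not taken at equal depth. The median counts per cell were 3974 in diestrus and 3236 in estrus. Any tie of these shares to the ratios was not tested. Cdk6 differed by less than its counting interval in LP cells (0.36, interval -0.24 to 0.99).

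**Figure D3:**
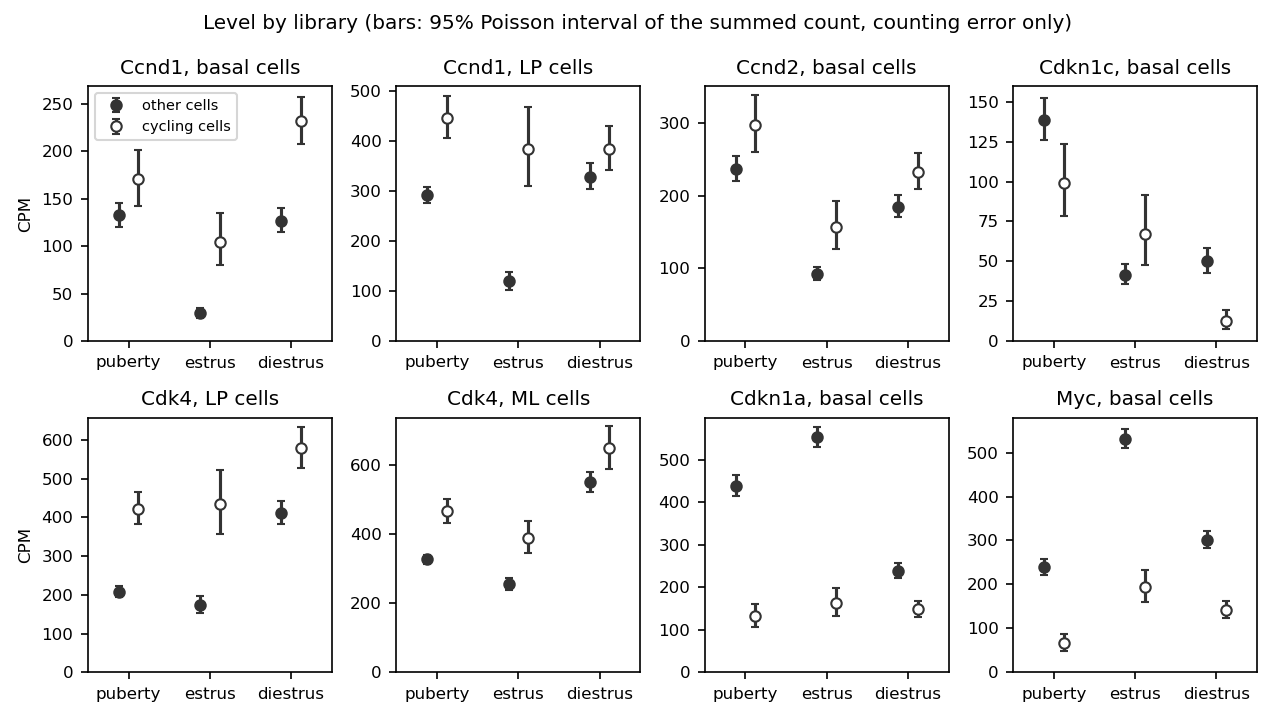
Level in CPM of 6 members by library, for other cells (filled) and cycling cells (open) of the lineage named above each panel, with 95% Poisson intervals of the summed count (counting error only). Ccnd1 and Ccnd2 are lowest in the estrus library in other cells, Myc and Cdkn1a are highest there in basal cells, and Cdkn1c is highest in puberty.

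Cdkn1a and Myc had the opposite order. Other basal cells had 240 CPM of Cdkn1a in diestrus and 553 in estrus (log2 ratio -1.20, interval -1.33 to -1.09), and LP cells 322 and 619 (-0.94, interval -1.10 to -0.79). Myc was 301 against 532 CPM in basal cells (-0.82, interval -0.93 to -0.71) and 128 against 237 in LP cells (-0.88, interval -1.13 to -0.64). In ML cells the ratios were smaller, -0.20 (-0.41 to -0.0025) for Cdkn1a and 0.21 (-0.14 to 0.57) for Myc. The early response and heat shock genes, a list of 10 that includes Fos, Jun and Hspa1a and responds to cell handling as well as to mitogens, summed to 25150 to 31230 CPM in the other cells of estrus, 14830 to 18660 in diestrus and 6506 to 11100 in puberty. Their part in the Myc and Cdkn1a values was not tested. Rb1 in LP cells was also lower in diestrus (-1.17, interval -1.73 to -0.68, from 49 and 89 counts), and Cdkn1b there passed 2-fold on 11 and 20 counts (-1.08, interval -2.41 to -0.070).

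Puberty stood apart in Cdkn1c. Other basal cells had 139 CPM in puberty against 41.5 in estrus and 50.1 in diestrus, log2 ratios of 1.72 (1.48 to 2.01) and 1.45 (1.20 to 1.75). In cycling basal cells it had 99.1 CPM in puberty, 67.0 in estrus and 12.6 in diestrus, so diestrus was lowest there, from 19 counts. The only other member past 2-fold was Cdkn1b in basal cells, lower in puberty on 11 counts, and it was not past 2-fold under 6 of the alternatives. Cdkn1a and Myc in ML cells came close, with mean log2 ratios of puberty to adult of 1.07 and 1.02, but one of the 2 adult ratios of each was under 2-fold. Stage, library, depth and early response level cannot be told apart for any of these ratios.

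Cycling cells were compared with the other cells of their own lineage and library, over 9 pairs. These come from 3 libraries, so pairs of the same library are not independent. Ccnd1, Ccnd3 and Cdk4 rose and Cdkn1a and Myc fell in the mean over the lineages, so 5 of 10 members passed, where 39.9% of all genes tested passed. The median over the members was -0.24 on the log2 scale, beside -0.17 over all genes. It includes Ccnd2, Cdk6, Cdkn1b, Cdkn1c and Rb1, which had too few counts in cycling cells for a fold over all lineages. Its middle values were those of Cdkn1b and Cdkn1c, so it says little about the members. By lineage 6 members passed in basal cells, 6 in LP cells and 3 in ML cells, where 22.8%, 20.9% and 23.4% of all genes passed. Cycling cells had lower sums of their own lineage markers, as given above, whose part in these differences was not tested. Cycling cells were also deeper: their median counts per cell were 6911 to 10604, against 2485 to 4527 in the other cells of these lineages.

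In the mean over lineages Ccnd1 rose by 0.74 ± 0.12 on the log2 scale (adjusted p = 3.1e-05), Ccnd3 by 0.59 ± 0.092 (adjusted p = 1.5e-05) and Cdk4 by 0.74 ± 0.088 (adjusted p = 3.1e-07). Each was higher in 9 of 9 pairs. Cdkn1a fell by 1.04 on the log2 scale (SE 0.10, adjusted p = 9.5e-09) and Myc fell by 1.14 (SE 0.097, adjusted p = 1.1e-09), each lower in 9 of 9 pairs. Ccnd2 had too few luminal counts for a mean over lineages.

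**Figure D4:**
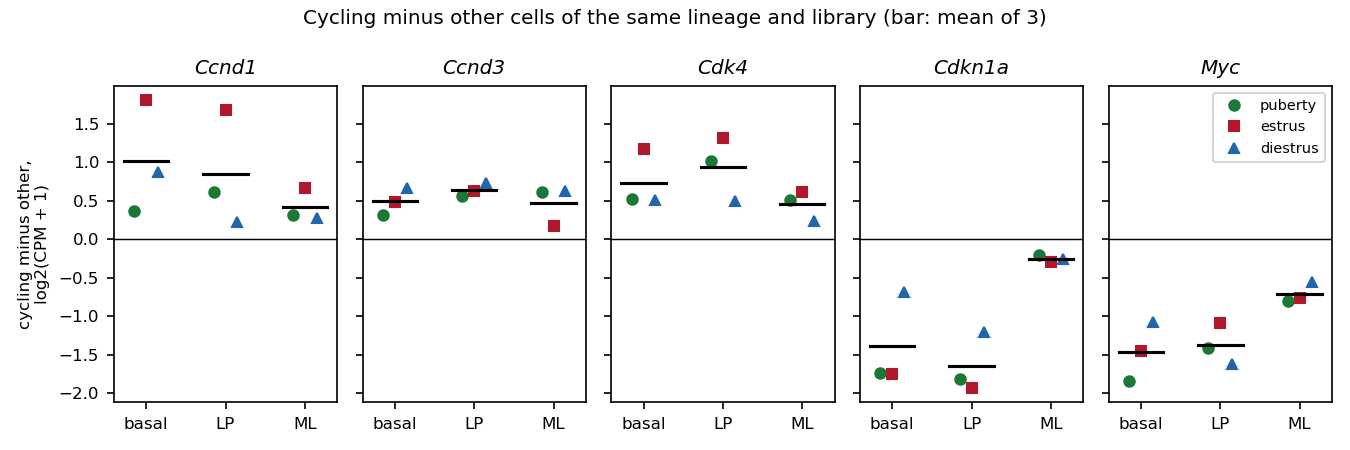
Difference between cycling and other cells of the same lineage and library, as log2(CPM + 1), for the 5 members that passed in the mean over lineages (1 point per library, bar at the mean of 3). All 9 differences are above 0 for Ccnd1, Ccnd3 and Cdk4 and below 0 for Cdkn1a and Myc, and those of Cdkn1a lie nearest to 0 in ML cells.

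Cdkn1a was the member whose cycling change differed among lineages. Cycling basal cells had 132, 163 and 148 CPM of Cdkn1a (puberty, estrus, diestrus) against 439, 553 and 240 in other basal cells, and cycling LP cells had 180, 162 and 139 against 635, 619 and 322. Cycling ML cells had 254, 122 and 109 against 294, 150 and 130. The fall was -1.34 ± 0.17 in basal cells (adjusted p = 2.4e-06) and -1.59 ± 0.18 in LP cells (adjusted p = 3.7e-07), and ML cells did not pass (-0.20 ± 0.17, adjusted p = 0.46). The test of the difference among lineages gave adjusted p = 0.0046, where 1.94% of all genes passed. It was not passed without the puberty library (adjusted p = 0.14), without estrus (0.052) or against deep other cells (0.066).

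Myc fell in each lineage, by 1.39 on the log2 scale in basal cells (adjusted p = 1.5e-07), by 1.35 in LP cells (adjusted p = 2.1e-06) and by 0.69 in ML cells (adjusted p = 0.0084; 0.20 without the puberty library). The difference among lineages did not pass for Myc (adjusted p = 0.22). Ccnd1 rose in basal cells (0.96 ± 0.22, adjusted p = 0.0024) and in LP cells (0.80 ± 0.21, adjusted p = 0.0065), with 0.47 ± 0.21 in ML cells (adjusted p = 0.11). Its pairs ranged widely, from 0.36 to 1.80 in basal cells and from 0.22 to 1.68 in LP cells, with estrus the largest in each. Ccnd3 rose by 0.54 ± 0.15 in basal cells, by 0.69 ± 0.17 in LP cells and by 0.54 ± 0.15 in ML cells. Its basal call was lost without puberty (adjusted p = 0.089) or diestrus (0.27), and its ML call without diestrus (0.064).

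Cdk4 rose by 0.76 ± 0.15 in basal cells, by 0.96 ± 0.16 in LP cells and by 0.51 ± 0.15 in ML cells (adjusted p = 5.6e-04, 8.3e-05 and 0.015). In ML cells the calls of Ccnd3 and Cdk4 were lost without the puberty library (adjusted p = 0.14 and 0.083), and no member passed there without it. Ccnd2 rose in basal cells by 0.49 ± 0.15 (adjusted p = 0.023), a call lost without any 1 of the 3 libraries (adjusted p from 0.097 to 0.14). Rb1 fell in LP cells by 1.45 on the log2 scale (SE 0.36, adjusted p = 0.0052), from 27 counts in cycling cells, and did not pass without puberty (adjusted p = 0.35). Cdkn1c in basal cells did not pass (-0.49 ± 0.29, adjusted p = 0.25), although it did without estrus (-0.98, adjusted p = 0.029), nor did Cdk6 in LP cells (-0.54 ± 0.36, adjusted p = 0.33); Cdkn1b, with 22 counts in cycling cells of each of 2 lineages, had 0.15 ± 0.45 in basal cells (adjusted p = 0.86) and -0.24 ± 0.42 in ML cells (adjusted p = 0.73). In the lineages not given here, Ccnd2, Cdk6, Cdkn1b, Cdkn1c and Rb1 had too few counts in cycling cells for a fold.

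Depth moved with these differences: for the 5 members that passed in the mean over lineages, the mean difference was smaller against deeper comparison cells. Against other cells with at least 5000 counts, a comparison added after the data were seen, Ccnd1 in basal cells had a difference of 0.0058 ± 0.19 (adjusted p = 1) and Ccnd2 one of -0.17 ± 0.15 (adjusted p = 0.59). Cdk4 in basal cells was at 0.23 ± 0.15 (adjusted p = 0.41) and Cdkn1a at -0.61 ± 0.21 (adjusted p = 0.074), so that of the members only Myc passed in basal cells, where 7.83% of all genes did. In LP cells 5 passed and in ML cells 2, where 17.2% and 21.7% of all genes did. In the mean over lineages 4 members passed, where 31.7% of all genes did: Ccnd3 (0.50 ± 0.095), Cdk4 (0.40 ± 0.087), Cdkn1a (-0.66 ± 0.12) and Myc (-0.86 ± 0.096), with Ccnd1 at 0.25 ± 0.11 (adjusted p = 0.078). These deep other cells numbered 145, 153 and 209 in basal cells, with median counts of 6428 to 6603, still below the cycling cells.

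**Figure D5:**
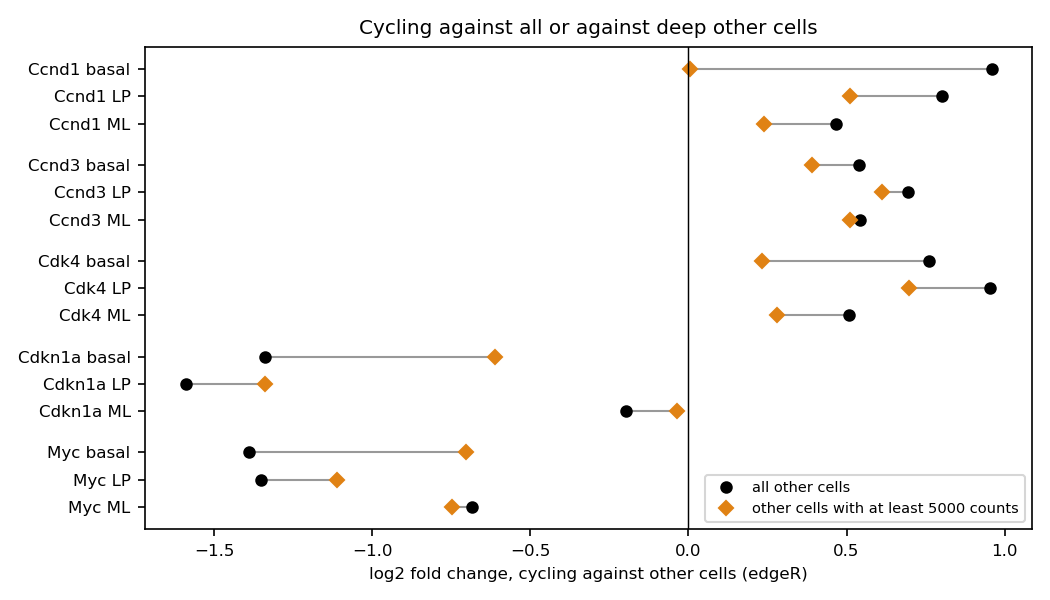
Log2 fold change (edgeR) of cycling against all other cells (black circles) and against other cells with at least 5000 counts (orange diamonds), by lineage. Ccnd1 in basal cells moves from 0.96 to 0.0058, while Ccnd3 and Myc in ML cells stay near their first values. Cdkn1a in LP cells moves from -1.59 to -1.34.

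With every cell thinned to 2000 counts, cycling cells more often had a D-cyclin count. Cycling was called before thinning, and the other cells were not limited to deep ones, so these shares do not replace the deep comparison above. A count of any D cyclin was found in 61.2%, 43.1% and 65.9% of cycling basal cells (puberty, estrus, diestrus) and in 39.3%, 27.1% and 40.0% of other basal cells. For LP cells the shares were 60.8%, 55.0% and 54.4% against 31.4%, 27.4% and 44.6%, and for ML cells 45.3%, 40.0% and 32.2% against 27.5%, 28.9% and 24.1%. The order was the same in 9 of 9 pairs, the smallest group being 20 cycling LP cells of estrus, of which 11 had a count. Ccnd1 and Ccnd2 were found together in 19.4%, 5.88% and 14.5% of cycling basal cells and in 5.37%, 1.45% and 8.05% of other basal cells, so these 2 D cyclins were not confined to separate basal cells.

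Other genes were read from the same lists in the cycling comparison, where 39.9% of all genes passed (1536 higher, 2488 lower) and the median over all genes was -0.17 on the log2 scale. Of 24 tested genes of the G1 to S machinery 13 passed, 11 of them higher, with a median of 0.57. Cks1b (1.73 ± 0.10), Ccne1 (2.46 ± 0.21) and the inhibitor Cdkn2c (1.85 ± 0.13) rose, and E2f5 (-0.54 ± 0.20) and Mnat1 (-0.34 ± 0.11) fell. Cdkn2c rose most in basal cells (3.08 ± 0.22). It had 85.1, 72.2 and 109 CPM in cycling basal cells against 7.21, 11 and 13.9 CPM in other basal cells. An INK4 inhibitor thus rose while Cdkn1a fell, in the comparison with all other cells. Against the deep other cells Cdkn1a in basal cells did not pass (-0.61 ± 0.21, adjusted p = 0.074, edgeR). In that comparison 5 of 20 tested genes of the list passed as higher in basal cells, beside 9 of 24 against all other cells.

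In the Myc network 4 of 10 passed, close to the share over all genes. Mxd3, a Max partner known to be expressed in dividing cells, rose from at most 2.58 CPM in any sum of other cells to between 15.8 and 45.0 CPM in cycling cells (6.17 ± 0.31), and Mxd4 (-1.60 ± 0.16), Max (-0.43 ± 0.087) and Mlx (-0.44 ± 0.15) fell. Of 12 genes that p53 activates 6 passed, all lower, with a median of -0.29, beside a median over all genes that was also below 0; Btg2 (-1.53 ± 0.076), Gadd45a (-1.28 ± 0.11) and Trp53inp1 (-1.75 ± 0.22) led. All 10 of the early response and heat shock genes were lower in cycling cells, with a median of -1.23, led by Hspa1a (-2.09 ± 0.093), Junb (-1.21 ± 0.080) and Jun (-1.27 ± 0.088). They fell beside Myc and Cdkn1a in the same cells. Against the deep other cells 9 of 10 passed as lower in the mean over lineages, with a median of -0.84. By lineage, 1 of these genes passed in basal cells (median -0.32), 5 in LP cells (-0.63) and 9 in ML cells (-1.23). Their part in the fall of Myc and Cdkn1a was not tested.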

How the data were processed

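Lin–CD24+ cells were profiled on the 10x Genomics Chromium, and the authors made the deposited tables with Cell Ranger 2.0 on mm10: whole-number counts of molecules per gene and barcode, not normalized. All deposited barcodes were used. The members and lists were chosen with earlier results of these data known. Every member is named, and from each list up to 3 genes per direction with the smallest adjusted p.

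Cells were classed from marker genes and derived signatures of 100 genes per lineage, the latter without members, list genes or cell cycle genes; intermediate luminal and mixed cells were left out. Scrublet, run in scanpy 1.11.5, called 3.06%, 1.10% and 0.205% of cells doublets (puberty, estrus, diestrus), the last a share too low for the caller to have worked; none was removed, and leaving them out was an alternative. Counts were summed by library, lineage and state and tested in edgeR 4.0.16 (quasi-likelihood F test, TMM, library as block, filterByExpr, Benjamini-Hochberg over all genes, threshold 0.05). The lineage fit held 9 sums of other cells and the cycling fit 18. SE is the size of the log2 fold change over the root of F. The 3 libraries come from different stages and served as replicates, so p-values measure how differences within a library vary from library to library. In the cycling fit each lineage of each library was its own block. Its 9 pairs were treated as independent although they come from 3 libraries. The labels do not tie cells to animals. For cycling folds, each lineage needed 20 counts, observed or expected, in cycling cells, a rule set after the counts were seen. Ratios between libraries used log2(CPM + 1). Shares used cells thinned to 2000 counts; shallower cells were left out. Positions are those of GENCODE M21 and the 2nd puberty table served only as an alternative. On simulated data with known changes the test was checked first. Those counts were drawn independently, without an effect of library or of cell depth, so the check does not cover these. DESeq2 1.42.0, other size factors, filters, class and cycling rules and left-out libraries were the alternatives.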

Additional observations from a re-analysis of the deposited data

Results flagged for a closer look

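Cdkn1a, the gene of the inhibitor p21, was picked out because its difference between cycling and other cells was unlike among the lineages, by the interaction term of the fit (adjusted p = 0.00458, edgeR). On the log2 scale it was -1.34 in basal cells, -1.59 in LP cells and -0.20 in ML cells, and it was below 0 in 9 of 9 pairs of a lineage and library. It was 1 of 10 members tested and among the 1.94% of all genes that passed.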

How the results depend on the processing

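Of 47 tested fold changes, 688 values under the alternatives kept their direction and side of the threshold, 46 lost the threshold, 11 gained it and 7 changed sign. The sign changes were in Cdk6 for basal against luminal cells (-0.12 with classes by marker z-score), Cdkn1b for LP against ML cells (0.040 without diestrus, with leave-one-out values from -0.388), Cdkn1b for cycling basal cells (-0.21 with the shallower puberty table, -0.073 with cycling called after thinning, -0.49 without puberty, with leave-one-out values up to 0.423), Cdkn1b for cycling ML cells (0.096 without diestrus, with leave-one-out values from -0.461) and Ccnd2 for cycling basal cells (-0.17 against other cells with 5000 counts, chosen after seeing the data). Of these only Ccnd2 had passed. The 6 members called in cycling basal cells became 3 with cycling called after thinning and 1 against the deep other cells. Leaving out 1 library in turn gave 4 to 6 there, 0 to 3 in ML cells (0 without puberty) and 0 to 1 for the difference among lineages (0 without puberty and 0 without estrus), which was also 0 against the deep other cells. Of the 2 values past 2-fold in puberty, 1 was left with the shallower puberty table, with cycling called from 2 or 5 genes or after thinning, with a pseudocount of 5 CPM and with all cells of a lineage. Against other cells with no count of the 10 proliferation genes, also chosen after seeing the data, the numbers of members called were as before. DESeq2 did not call Ccnd1 for LP against ML cells (adjusted p = 0.0539), nor in cycling cells Ccnd2 in basal (0.155), Rb1 in LP (0.0735) or Myc in ML cells (0.0799). Lineages and states were compared within libraries; without the library as a block Ccnd1 and Cdk4 did not pass between lineages. Depth leaves Ccnd2 and Cdkn1c in cycling luminal cells, and Rb1 and Cdk6 in cycling basal and ML cells, without a fold. The causes of these changes were not tested.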

Other observations

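Cells between LP and ML, called Lum Int in the study, were outside the lineage comparisons and numbered 219, 110 and 87 other cells (puberty, estrus, diestrus). Scaled to the total of each sum alone, Rb1 had 16.5, 25.2 and 14.9 CPM there and Cdk6 had 13.6, 16.8 and 18.3 CPM. Each lay between the LP and the ML level of the same library, whether those are scaled alike or by trimmed mean. Myc had 131, 137 and 56.4 CPM, also between the levels of LP and ML cells. Cdkn1a had 422, 481 and 299 CPM, which are not to be set beside the trimmed-mean-scaled levels of LP and ML cells. Ccnd2 had 1, 2 and 0 counts, as sparse as in LP and ML cells. Lum Int cells were deeper than either lineage, with median counts of 5984 to 6620 per cell, and their cells were chosen by position between the LP and ML signatures, so these values are a description with no test.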
